A study of Mus musculus with 8 samples.

Results

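Keratins are the intermediate filament proteins of epithelial cells, and claudins are the membrane proteins that seal tight junctions between cells. The genes described here are the protein-coding rows of the deposited count table whose symbol is Krt or Cldn followed by a digit. The rule found 86 of 55450 genes, 53 keratins and 33 claudins. RNA had been sequenced from c-Kit bead-enriched cells of B16F10 melanomas, 8 libraries in all, each from a tumour of its own. B16F10 is a pigmented melanoma line of C57BL/6 mice. The receptor c-Kit binds stem cell factor and is carried by blood precursors, mast cells, melanocytes and some gland epithelium. Bead enrichment leaves other tumour cells in the sample. Wild-type C57BL/6 mice received 150000 tumour cells under the skin at 6 weeks of age, and tumours were taken on day 17. In 4 libraries, numbered 2 to 5, the injected cells were a scramble control line. In the other 4, numbered 1 to 4 and labelled PERK KO, the injected line lacked PERK, a kinase that slows translation when proteins misfold in the endoplasmic reticulum. The hosts were wild type in both groups. Whether the PERK KO line is 1 clone, and whether each tumour had a mouse of its own, are not given in the sources used here. If tumours shared a mouse, their libraries are not independent, though the p-values treat them so. The p-values compare tumours of 1 line with those of another and cannot tell PERK loss from other line traits.

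A keratin filament needs a type I and a type II partner. Krt18, Krt19 and Krt20 are type I and Krt7 and Krt8 type II keratins of simple epithelium, the single-layered lining of glands and ducts. Stratified epithelium such as epidermis uses other pairs, among them Krt5 with Krt14 in the basal layer, and the hair shaft and the sheath around its root have keratins of their own. Among claudins, Cldn3, Cldn4 and Cldn7 are typical of epithelium and Cldn5 of endothelium. Members were divided on this basis into 5 simple, 20 stratified, 23 hair and root sheath and 5 other keratins, and 18 epithelial, 1 endothelial and 14 other claudins.

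Library totals ran from 29006949 to 56697163 counts. Values are CPM, the counts of a gene scaled to its library's total and to TMM factors, which level composition between libraries. A total of 3 counts, used as the floor, was 0.0515 to 0.0650 CPM in a scramble library and 0.0697 to 0.1005 CPM in a PERK-deficient one, and such floors cover counting error only. Small counts came in steps: 185 protein-coding genes had 1 to 10 counts in PERK-deficient library 2 while 367 had 31 to 40, against 709 to 1235 genes with 1 to 10 counts in the scramble libraries. Eif2ak3, which encodes PERK, lay between 48.3 and 59.2 CPM in scramble and between 7.73 and 22.7 CPM in PERK-deficient libraries, and so matched the labels. Of 12 blood precursor markers, 11 were tested and 8 rose (edgeR), among them Gata2 by 2.24 (SE 0.32, adjusted p = 0.00162) and Flt3 by 3.52 (SE 0.53, adjusted p = 0.0033) in log2 units. Mpo, a granule enzyme of myeloid precursors, had no count in the 8 libraries. Of the gene lists read here, that of the melanocyte lineage had the highest sum in every library. Its 14 markers summed to 29938 to 30631 CPM in scramble and 21149 to 25635 CPM in PERK-deficient libraries. Of these 14, 9 fell, among them Oca2 by 1.57 and Trpm1 by 1.18 on the log2 scale. Scramble library 2 stood apart in hair keratins, described with those genes. The most abundant transcript, mt-Cytb, took 5.49 and 3.16% of counts in PERK-deficient libraries 2 and 3, while no gene took over 2.22% in any other library.

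The starts of 6 of the 7 genes called below have a window in the RefSeq promoter table (build GRCm38.p6, the mm10 build). Of the 86 members, 61 had one. To show which members share short motifs, 250 bases before each start were searched for TGANTCA (AP-1), GGGCGG (the GC box of Sp and Klf factors), CCGGAAG (ETS factors, the family of Ehf) and AACNNGTT (grainyhead factors) on both strands and TATAAA on the gene's own strand. These motifs were chosen after the sequences had been seen. The stretches of 4 called genes follow, with matches in capitals and bases inside annotated exons left out.
Cldn4, chr5:134946935-134947184, minus strand: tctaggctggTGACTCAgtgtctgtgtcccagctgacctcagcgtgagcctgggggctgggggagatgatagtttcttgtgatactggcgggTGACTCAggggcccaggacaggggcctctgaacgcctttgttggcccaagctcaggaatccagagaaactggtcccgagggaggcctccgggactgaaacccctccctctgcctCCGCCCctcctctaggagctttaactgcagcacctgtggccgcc
Cldn3, chr5:134985964-134986213, plus strand: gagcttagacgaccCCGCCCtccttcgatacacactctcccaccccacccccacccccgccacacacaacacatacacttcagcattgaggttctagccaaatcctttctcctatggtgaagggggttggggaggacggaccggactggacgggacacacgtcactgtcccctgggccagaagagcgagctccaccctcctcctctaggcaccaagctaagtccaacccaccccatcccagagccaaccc
Cldn7, chr11:69964529-69964778, plus strand: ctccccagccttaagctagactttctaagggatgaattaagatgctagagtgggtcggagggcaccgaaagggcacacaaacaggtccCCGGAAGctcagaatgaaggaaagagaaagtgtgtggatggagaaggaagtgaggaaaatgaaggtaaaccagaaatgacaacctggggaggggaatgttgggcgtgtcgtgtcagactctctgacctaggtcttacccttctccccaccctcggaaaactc
Krt18, chr15:102027966-102028179, plus strand: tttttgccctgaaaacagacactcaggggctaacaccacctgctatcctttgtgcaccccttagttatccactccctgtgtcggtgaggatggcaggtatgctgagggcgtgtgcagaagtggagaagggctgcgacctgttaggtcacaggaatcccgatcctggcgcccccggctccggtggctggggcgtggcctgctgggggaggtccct
Cldn4 alone of the called genes held AP-1 motifs, 2 of them, against at least 1 in 6.75% of all 32851 windows. The GC box was present for 4 of the 6 genes, Krt7, Cldn3, Cldn4 and a second start of Cldn7, against 32.7% of all windows. A gene was counted if any of its windows matched, so shares of genes and of windows are unlike measures. For Krt7 and the second start of Cldn7, the stretches left without exon bases held no GC box. Cldn7 held the ETS motif (6.91% of all windows). The grainyhead motif (3.64% of all windows) and TATAAA (7.59%) were found for 0 of the 6 genes. The hair and root sheath keratins differed in this: 11 of the 17 with a window held TATAAA. Their 2 members of highest mean CPM, Krt71 and Krt25, are shown with TATAAA in capitals.
Krt71, chr15:101743110-101743347, minus strand: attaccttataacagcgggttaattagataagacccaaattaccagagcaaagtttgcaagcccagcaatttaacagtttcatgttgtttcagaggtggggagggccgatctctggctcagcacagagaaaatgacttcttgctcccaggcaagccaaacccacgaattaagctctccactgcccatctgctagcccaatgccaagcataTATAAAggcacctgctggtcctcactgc
Krt25, chr11:99322952-99323201, minus strand: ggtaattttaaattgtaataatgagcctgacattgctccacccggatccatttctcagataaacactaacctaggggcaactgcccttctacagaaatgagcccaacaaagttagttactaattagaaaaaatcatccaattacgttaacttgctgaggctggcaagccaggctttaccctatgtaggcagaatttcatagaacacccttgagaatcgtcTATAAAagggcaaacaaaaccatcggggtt
A match describes the letters only and is not evidence of binding.

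Of the 86 members, 38 had no count in any library and 15 passed the filter on low counts. With the tumour cells lacking PERK, 7 members rose and none fell by edgeR's quasi-likelihood test, at an adjusted p over all 16662 tested genes of under 0.05. Over all tested genes 7.66% were higher and 6.13% lower. At an unadjusted p under 0.05 there were 7 higher members and 1 lower, and DESeq2 and limma-voom called 7 higher and none lower as well. Over all 16662 genes, DESeq2 called 1874 higher and 1096 lower, and limma-voom 1423 higher and 1024 lower. No share over all genes at an unadjusted p is given here. The 7 are the simple keratins Krt7, Krt8, Krt18 and Krt19 and the epithelial claudins Cldn3, Cldn4 and Cldn7. None of the 7 would have passed the filter on the scramble libraries alone, so the share of tested members that rose supports nothing by itself. In bulk samples like these, more cells of a type and more RNA per cell cannot be told apart. Library 4 was the highest PERK-deficient library for each of the 7, and library 2 the lowest for all but Krt7, for which it was library 3. That library 4 also had the highest sums of the luminal epithelium markers, 342 CPM, and of the blood precursor markers, 650 CPM, though not of each marker, and their part in the result was not tested.

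**Figure D1:**
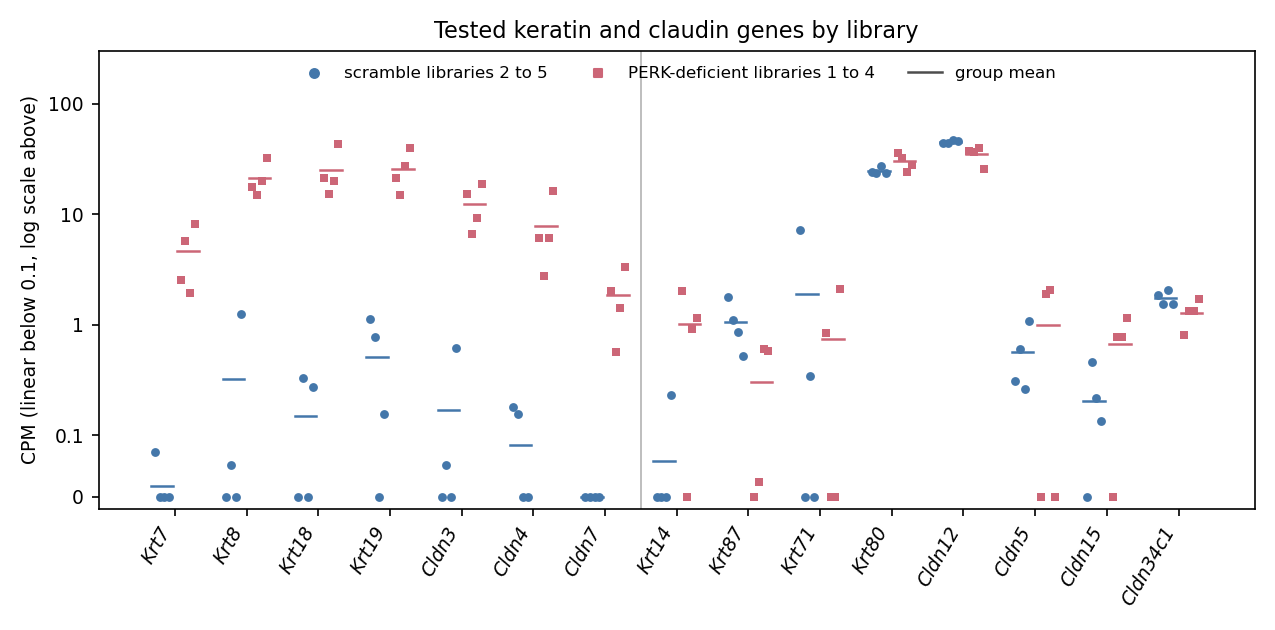
CPM of the 15 tested members in each library, on an axis that is linear below 0.1 and logarithmic above. Circles are scramble and squares PERK-deficient libraries, short lines are group means (n = 4 each), and the 7 members left of the vertical line rose.

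Krt18 (ENSMUSG00000023043.7, chromosome 15, 102028180 to 102032027) had 0, 0.326, 0 and 0.271 CPM in scramble libraries 2 to 5 and 21.0, 15.1, 19.8 and 43.4 CPM in PERK-deficient libraries 1 to 4. Every PERK-deficient library exceeded every scramble library by a wide margin. The fitted rise of Krt18, in log2 units, was 7.31 (SE 0.87, edgeR adjusted p = 0.00194, 4 libraries a group), and 8.04 without scramble replicate 3. Krt8, its usual type II partner (ENSMUSG00000049382.10, chromosome 15, 101996698 to 102004482), had 0, 0.0515, 0 and 1.24 CPM in scramble and 17.7, 15.0, 19.99 and 31.9 CPM in PERK-deficient libraries. Nearly all Krt8 counts of the scramble group lay in library 5. The Krt8 rise of 6.03 (SE 1.25, adjusted p = 0.0188) became 9.94 without that library, and the call ended without scramble replicate 3 (adjusted p = 0.0662) and with no filter on low counts (0.0558). The 2 partners ran close to each other in the PERK-deficient libraries, with a ratio of Krt8 to Krt18 CPM of 0.736 to 1.01, and of 0.656 ± 0.0951 (SD, n = 4) per length of annotated exon.

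Krt19, a type I keratin that lacks the usual tail domain (ENSMUSG00000020911.14, chromosome 11, 100140810 to 100148665), had 1.12, 0.773, 0 and 0.155 CPM in scramble and 21.4, 15.0, 27.2 and 39.5 CPM in PERK-deficient libraries. It had the highest mean of the simple keratins in scramble tumours, where 3 of 4 libraries had counts. Krt19 rose by 5.61 (SE 0.88, edgeR adjusted p = 0.00612), and by 6.30 without scramble replicate 2. Krt7, a type II keratin of ducts and glands (ENSMUSG00000023039.17, chromosome 15, 101411043 to 101430313), had 4 counts in scramble library 2, 0.0724 CPM, and none in the other 3. The PERK-deficient libraries had 2.55, 5.71, 1.93 and 8.19 CPM of Krt7, a rise of 7.74 (SE 1.07, adjusted p = 0.00153) that was 10.66 without scramble replicate 2. That last value depends on the prior count of the fit, since the remaining scramble libraries had none. Krt7 followed the other simple keratins less closely: its ratio to Krt8 went from 0.0964 in PERK-deficient library 3 to 0.381 in library 2. Krt20, the simple keratin of gut lining and urothelium, had 8 counts in scramble library 3 and none elsewhere. Per kilobase of annotated exon, Krt18 had 17.3 CPM, Krt19 13.9, Krt8 10.8 and Krt7 0.652 CPM in PERK-deficient tumours. The annotated exons cover 7049 bases for Krt7 and 1958 bases for Krt8, and before scaling to length Krt7 was also the lowest of the 4, at 4.59 CPM against 21.1 CPM for Krt8.

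Cldn3 and Cldn4 lie side by side on chromosome 5 with 39.3 kb between them, and both seal the paracellular space of epithelia. Cldn3 (ENSMUSG00000070473.4, 134986214 to 134987472) had 0, 0.0515, 0 and 0.619 CPM in scramble and 15.1, 6.56, 9.31 and 18.8 CPM in PERK-deficient libraries. Its rise of 6.20 (SE 1.16, edgeR adjusted p = 0.0102) became 9.18 without scramble replicate 5, which held nearly all counts of its group. Cldn4 (ENSMUSG00000047501.3, 134945119 to 134946934) had 0.181, 0.155, 0 and 0 CPM in scramble and 6.13, 2.73, 6.04 and 16.1 CPM in PERK-deficient libraries. It rose by 6.44 (SE 0.98, adjusted p = 0.00262), by 7.06 without scramble replicate 2 and by 5.80 without PERK_KO replicate 4. The ratio of Cldn4 to Cldn3 was not fixed, at 0.406 to 0.855 over the PERK-deficient libraries. Cldn7, which also lines the basolateral side of epithelial cells (ENSMUSG00000018569.12, chromosome 11, 69964779 to 69967885), was at 0 counts in every scramble library and had 2.01, 0.561, 1.42 and 3.35 CPM in PERK-deficient libraries. Against a floor of 3 counts over the scramble group, 0.0142 CPM, Cldn7 was at least 129-fold higher (edgeR adjusted p = 0.00471). It was not tested when 1 CPM in at least 4 libraries was required.

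**Figure D2:**
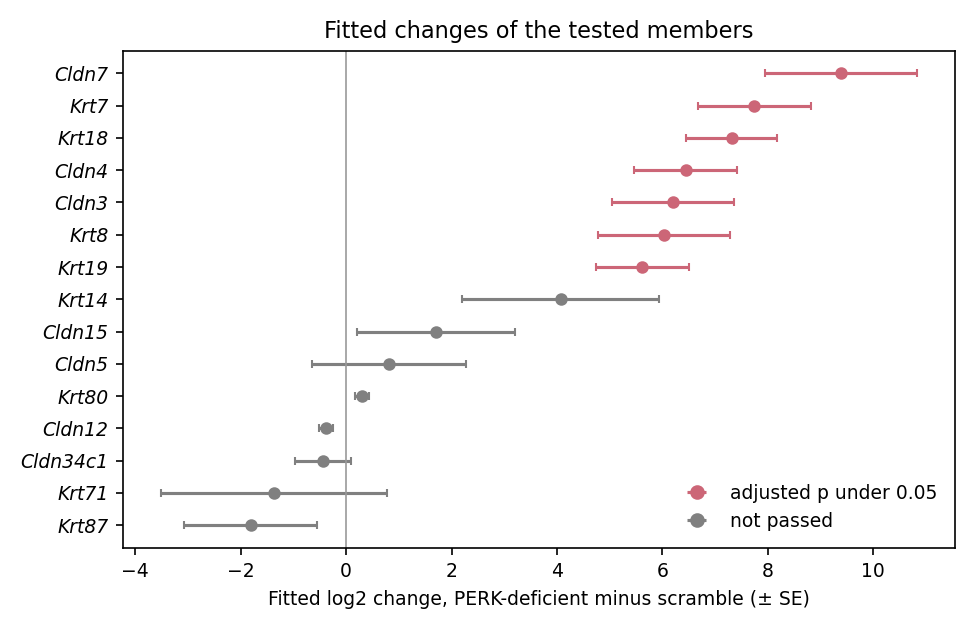
Fitted log2 change of the 15 tested members, PERK-deficient minus scramble, with the standard error as bars. The 7 simple keratins and epithelial claudins that passed lie between 5.61 and 9.38, and the value of Cldn7 depends on the prior count because its scramble libraries have no count.

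Among the other epithelial claudins, Cldn15 was tested and is named after its values were seen. Scramble tumours had 0.204 ± 0.195 CPM of it and PERK-deficient tumours 0.673 ± 0.481 CPM (SD, n = 4 each, edgeR adjusted p = 0.545). Of the 14 epithelial claudins that were not tested, 7 had a count somewhere. The highest was Cldn1, a claudin of epidermis and many other epithelia, with 0.181, 0.172, 0 and 0 CPM in scramble and 0.871, 0.0488, 1.53 and 7.85 CPM in PERK-deficient libraries. The PERK-deficient libraries differed widely from each other, and library 2 lay within the scramble range. Cldn1 entered the test and rose in the fit without PERK_KO replicate 2. That fit leaves out the PERK-deficient library within the scramble range, which favoured both its entry and its rise. Cldn8, Cldn23 and Cldn17 are named after their values were seen. Cldn8 and Cldn23 had no count in scramble libraries and reached 1.14 and 0.884 CPM in PERK-deficient library 4. Cldn17 went the other way, with 0.217 and 0.520 CPM in scramble libraries 2 and 4 and no count in the other 6. Cldn2, Cldn6, Cldn9, Cldn14, Cldn16, Cldn18 and Cldn19 had no count in any library.

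The stratified keratins were few and low. Of 20 members, 11 had no count, and the basal keratin Krt14 was the only one tested. Krt14 (chromosome 11, 100203162 to 100207548) had 0, 0, 0 and 0.232 CPM in scramble and 2.01, 0, 0.906 and 1.14 CPM in PERK-deficient libraries. The groups overlapped through PERK-deficient library 2, and the log2 difference of 4.07 did not pass (SE 1.88, edgeR adjusted p = 0.191). That difference was 8.499 without scramble replicate 5, which held all Krt14 counts of its group. The value of 8.499 thus depends on the prior count of the fit. Its partner Krt5, the highest of those not tested, had 1.57, 0, 1.21 and 2.42 CPM in PERK-deficient libraries and 0.195 CPM in scramble library 4 alone of its group. Both had no count in PERK-deficient library 2, while the highest library was 1 for Krt14 and 4 for Krt5. All stratified keratins together summed to 0 to 0.619 CPM in scramble libraries and 4.92, 0.342, 3.44 and 6.68 CPM in PERK-deficient libraries 1 to 4. The simple keratins summed to 50.8 to 123 CPM in those same libraries. Neither edgeR at an unadjusted p under 0.05 nor DESeq2 or limma-voom called a stratified keratin over the 8 libraries. Krt4, a keratin of the oesophagus, is named after its values were seen. It had no count in scramble libraries and 0, 0.342, 0.906 and 0.624 CPM in PERK-deficient ones. Krt4 entered the test and rose only in the fit without PERK_KO replicate 1. That fit leaves out the only PERK-deficient library with no Krt4 count, which favoured both its entry and its rise.

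Hair and root sheath keratins were high in single libraries of both groups, and neither of the 2 tested members passed. Scramble library 2 had counts of 14 of the 23 members, summing to 20.8 CPM, while the other scramble libraries had 2 members each and 0.658 to 1.29 CPM. PERK-deficient libraries 1 to 4 had 0.871, 0.0244, 3.09 and 11.6 CPM. Krt71, a keratin of the inner root sheath (chromosome 15, 101733949 to 101743109), had 7.24, 0, 0.347 and 0 CPM in scramble and 0.837, 0, 0 and 2.11 CPM in PERK-deficient libraries. Its log2 difference of -1.37 did not pass (SE 2.15, edgeR adjusted p = 0.775) and turned to 2.65 without scramble replicate 2. Krt25, an inner root sheath keratin and the highest untested one, had 3.80 CPM in scramble library 2 and 4.29 CPM in PERK-deficient library 4, and at most 0.464 CPM in the other 6. Tchh, which encodes trichohyalin of the same sheath, was at 45.3 CPM in scramble library 2, 11.5 and 5.75 CPM in PERK-deficient libraries 3 and 4, and at most 1.28 CPM elsewhere. Krt87, a hair shaft keratin whose reads near-identical neighbours may share, had 1.77, 1.10, 0.866 and 0.522 CPM in scramble and 0, 0.0244, 0.604 and 0.572 CPM in PERK-deficient libraries (adjusted p = 0.419). No hair keratin passed at an unadjusted p under 0.05 with edgeR, or with DESeq2 or limma-voom. Without scramble library 2 and PERK_KO library 4 together, a choice made after seeing the data, the 7 calls were kept.

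**Figure D3:**
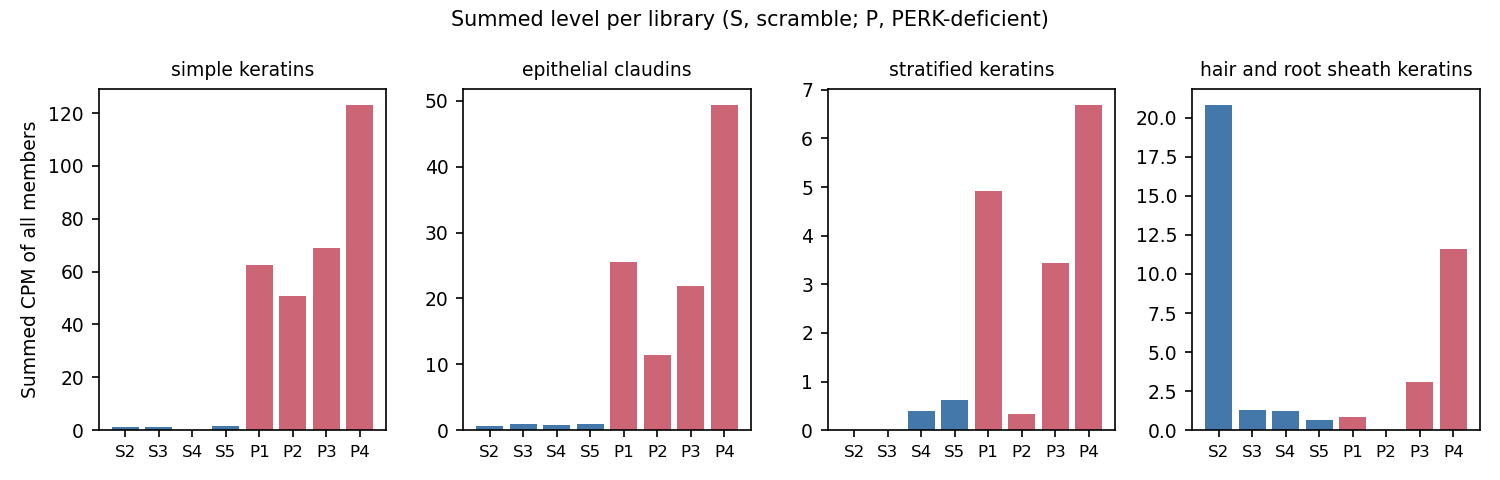
Summed CPM of all members of 4 subgroups in each library, with bars from 0 and a separate scale per panel (S2 to S5, scramble; P1 to P4, PERK-deficient). Simple keratins and epithelial claudins are high in all 4 PERK-deficient libraries, while hair and root sheath keratins are highest in scramble library 2, at 20.8 CPM, and PERK-deficient library 4, at 11.6 CPM.

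Cldn5, the main claudin of blood vessel walls (ENSMUSG00000041378.2, chromosome 16, 18776847 to 18778262), was low in both groups. It had 0.308, 0.601, 0.260 and 1.08 CPM in scramble and 0, 1.88, 2.07 and 0 CPM in PERK-deficient libraries. The scramble libraries lay between the PERK-deficient ones, and the log2 difference of 0.81 did not pass (SE 1.46, edgeR adjusted p = 0.806). It was 0.16 without PERK_KO replicate 3. Cdh5, the cadherin of the same cells, was far higher, at 15.9 to 95.8 CPM in scramble and 37.5 to 126 CPM in PERK-deficient libraries. The log2 ratio of Cldn5 to Cdh5, with 0.5 added to each count, averaged -6.89 ± 0.960 over scramble and -8.84 ± 3.53 over PERK-deficient libraries (SD, n = 4 each, exact two-sided permutation p = 0.4). The smallest p that this test can give is 0.0286. The 14 endothelial markers summed to 349 to 558 CPM in scramble and 337 to 651 CPM in PERK-deficient libraries. None of them passed with edgeR, DESeq2 or limma-voom, and 1 had an unadjusted edgeR p under 0.05. The most abundant, Eng, lay between 253 and 291 CPM in scramble and between 215 and 269 CPM in PERK-deficient libraries.

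A keratin and a claudin, Krt80 and Cldn12, were abundant in both groups, and neither passed. Cldn12, a claudin found in many tissues (ENSMUSG00000046798.14, chromosome 5, 5489537 to 5514958), had 44.2, 44.1, 46.7 and 46.1 CPM in scramble and 37.0, 36.8, 39.4 and 25.8 CPM in PERK-deficient libraries. Every PERK-deficient library was below every scramble library, but the log2 difference of -0.38 did not pass (SE 0.13, edgeR adjusted p = 0.075). It passed without PERK_KO replicate 3 (-0.45, adjusted p = 0.04997) and with library totals in place of TMM (-0.46, adjusted p = 0.0409). Krt80, a type II keratin of several epithelia (ENSMUSG00000037185.9, chromosome 15, 101347444 to 101370162), had 23.8, 23.4, 27.0 and 23.4 CPM in scramble and 35.5, 32.1, 24.2 and 28.1 CPM in PERK-deficient libraries. The groups overlapped, and the difference of 0.30 did not pass (SE 0.14, adjusted p = 0.188). These 2 genes and Cldn34c1 were the only members with counts in all 8 libraries. Cldn34c1, a claudin gene of the X chromosome, averaged 1.74 ± 0.255 CPM over the scramble and 1.28 ± 0.364 CPM over the PERK-deficient libraries (SD, n = 4 each, edgeR adjusted p = 0.681). The other 12 claudins that are neither epithelial nor endothelial had no count. Krt23, the highest of the untested other keratins, had counts in PERK-deficient libraries 3 and 4 alone, at 0.836 and 1.35 CPM.

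The called keratins lie in clusters of related genes, most of which had few or no counts. The type II cluster on chromosome 15 holds 26 members within 685 kb, of which 6 were tested and 3 rose (Krt7, Krt8 and the type I gene Krt18 at its end). Between Krt7 and Krt8 lie 22 members over 566 kb, of which 2 were tested, neither of them called, and 9 had no count. Krt8 and Krt18 are neighbours, with 23.7 kb between them. On chromosome 11, 27 keratin genes span 1037 kb, 2 were tested and Krt19 rose. The nearest protein-coding genes on each side that are no members came to 10, of which 6 were tested: Eif4b, Eif1, Mettl27, Abhd11, Slc2a4 and Elp5. Their log2 differences ran from -0.43 to 0.51, and none passed with edgeR at an adjusted or unadjusted p under 0.05, or with DESeq2 or limma-voom. Elp5, 0.337 kb beyond Cldn7, averaged 23.2 CPM in scramble libraries and 21.4 CPM in PERK-deficient ones. Eif4b, beyond Krt18, averaged 384 and 372 CPM. The antisense or long non-coding genes that overlap exons of Krt7 and Krt8 had no count in any library, and the one over Cldn3 had 1.

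Genes that work with keratins and claudins moved in part. Of 13 tested tight junction partners, 2 rose and 2 fell, with a median log2 change of 0.04 beside -0.02 over all tested genes. Lsr, which organises junctions where 3 cells meet, rose by 3.40 (SE 0.57, edgeR adjusted p = 0.00347), from 0.238 to 1.26 CPM in scramble to 4.82 to 13.9 CPM in PERK-deficient libraries. Cgnl1, which links junctions to the cytoskeleton, rose by 1.67 (SE 0.22, adjusted p = 0.00129). The scaffold Tjp1 and the junction protein Amotl1 fell by 0.33 and 0.45 and are named after their values were seen. Of 12 tested desmosome and adherens junction genes, 6 rose and 1 fell, with a median of 2.69. The epithelial cadherin Cdh1 rose by 2.88 (SE 0.25, adjusted p = 9.11e-05), with 2.66 to 3.62 CPM in scramble and 16.4 to 33.4 CPM in PERK-deficient libraries. Pkp1, a desmosome plaque protein, rose by 4.59 (SE 0.55, adjusted p = 0.000745). The other risers were Dsp, Ppl, Pkp3 and Dsg2, and the 1 that fell was Ctnnb1, which encodes beta-catenin. Ppl, Pkp1, Pkp3 and Dsg2 were below the filter level of 0.216 CPM in some scramble libraries and above it in every PERK-deficient one. As for the called members, the filter thus favoured a rise in this list's count and median. Cdh1 and Dsp were above that level in every library.

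The other intermediate filament genes did not follow the keratins. Of 10 tested, none passed with edgeR or limma-voom and 2 rose with DESeq2. At an unadjusted edgeR p under 0.05 there were 2 higher and 2 lower. Vim, the filament of mesenchymal cells, melanoma cells and leukocytes, had 2024 to 2374 CPM in scramble and 1957 to 3145 CPM in PERK-deficient libraries (adjusted p = 0.163). Lmna, which encodes nuclear lamins, had 242 to 269 and 235 to 329 CPM. Among 10 tested epithelial transcription factors, 5 rose and none fell with edgeR, with 9 higher and none lower at an unadjusted p under 0.05. DESeq2 and limma-voom called 7 higher and none lower each. Ehf had no count in scramble libraries and 8.98, 7.68, 8.80 and 22.1 CPM in PERK-deficient libraries 1 to 4. Esrp1, an epithelial splicing regulator, rose by 2.89 (SE 0.59, adjusted p = 0.00868). Of the 5 risers, Ehf and Grhl2 were below the filter level of 0.216 CPM in at least 1 scramble library. For these the filter favoured a rise. Esrp1, Klf5 and Foxa1 were above that level in every library.

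Markers of other epithelial cell types were read beside the members. Of 15 luminal epithelium markers, 10 rose and 1 fell, with a median of 2.99. Their sum was 67.3 to 83.4 CPM in scramble, most of it Cited1, and 177 to 342 CPM in PERK-deficient libraries. Epcam, an adhesion protein of simple epithelium, had 0.135 to 0.542 CPM in scramble and 15.2, 8.10, 15.0 and 27.4 CPM in PERK-deficient libraries (log2 change 5.77, SE 0.49, adjusted p = 9.11e-05). The ratio of Krt18 to Epcam CPM stayed between 1.32 and 1.87 in the PERK-deficient libraries. Prlr, the prolactin receptor, rose by 5.90 (SE 0.34, adjusted p = 5.31e-06). Of 16 keratinocyte markers 5 were tested and 3 rose, including Sfn by 2.68 and Itgb4 by 0.82. Among the cornified layer genes listed, Lor, Flg and Krtdap had no count in any library, while Sprr1a, Ivl and Sprr1b had counts. Sprr1a had counts in scramble libraries 2 and 5 and in every PERK-deficient library, and did not pass (edgeR adjusted p = 0.916). Ivl had counts in scramble library 2 and PERK-deficient library 4, and Sprr1b in PERK-deficient library 4 alone. The keratinocyte list summed to 46.9 to 72.8 CPM in scramble and 76.1 to 106 CPM in PERK-deficient libraries. Most of this sum was Itga6, an integrin of many cell types. Of 12 hair follicle markers 5 were tested and 1 rose, Gata3 by 3.42 (SE 0.50, adjusted p = 0.00215), which lymphocytes and luminal epithelium also express. That list summed to 53.7 CPM in scramble library 2, 2.16 to 3.14 CPM in the other scramble libraries, and 9.04 to 38.2 CPM in PERK-deficient libraries. The luminal list was chosen with earlier results of these samples known and is no independent evidence of its direction. Its risers Epcam, Ehf, Csn3, Wfdc18, Areg and Spint2 were below the filter level of 0.216 CPM in at least 1 scramble library. For these the filter favoured a rise. Its other risers, Cdh1, Muc1, Prlr and Aldh1a3, were above that level in every library.

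**Figure D4:**
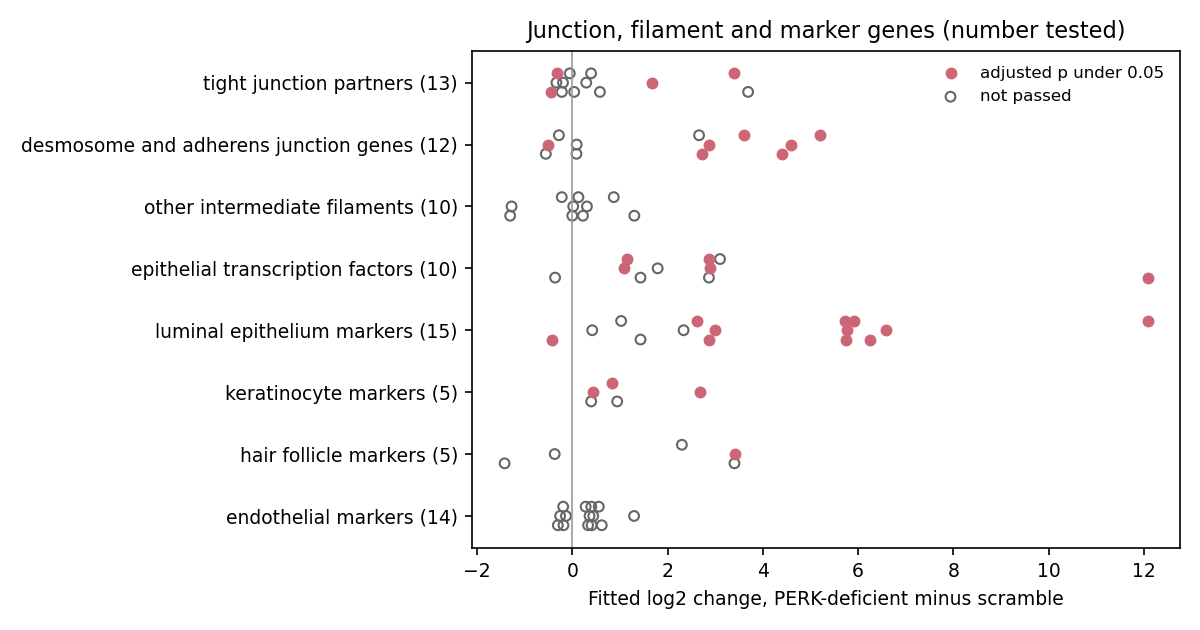
Fitted log2 change, PERK-deficient minus scramble, of the tested genes of 8 lists, with filled points for an adjusted p under 0.05 and open points for the rest. Other intermediate filaments and endothelial markers have no filled point, and Ehf, at the right in 2 lists, has no count in scramble, so its position depends on the prior count.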

How the data were processed

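The deposited raw table holds counts, whole numbers per gene and library with no normalization by the authors. Per the submitters' processing notes, the build was mm10 and the tools named are STAR (2.5.3a), HTSeq (0.6.1), DESeq2 (1.30.1) and bcl2fastq. How strand and overlapping genes were handled in counting is not given in the sources used here. Per the labels' protocols, strand-specific libraries were made from 100 ng RNA and sequenced as pairs of 105 bases. A second, normalized table was not used.

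Genes were filtered with filterByExpr by group (minimum count 10), scaled by TMM and tested with edgeR 4.0.16 (quasi-likelihood, robust, ~ group, 4 against 4 libraries) in R 4.3.3, with Benjamini-Hochberg adjustment over 16662 genes and a threshold of 0.05. The SE is the log2 change divided by the root of the F statistic. The test was checked on simulated data. Positions and exon lengths came from GENCODE M21, which held all 55450 identifiers. Alternatives used DESeq2 1.42.0, limma 3.58.1 and other scalings, filters and library sets. Members and lists were chosen with earlier results of these data known. Named by rule were the called members, the simple keratins, Cldn5, the 2 highest tested members and the highest untested member of each subgroup, the nearest outside neighbours, and 2 genes per list. Values were tabulated and plotted with Python 3.11.15, pandas 2.3.3 and matplotlib 3.10.9.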

Additional observations from a re-analysis of the deposited data

Results flagged for a closer look

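In 6 of 29 groups of 4 libraries with unequal values, 1 library lay far from the other 3 by Dixon's test at its 95% critical value, where chance gives about 1 in 20. Several of these groups consist of zeros and 1 or 2 low values. Krt7 had 0.0724 CPM in scramble library 2 and 0 in the rest of its group. Krt8 had 1.24 CPM and Cldn3 0.619 CPM in scramble library 5, each beside a next value of 0.0515 CPM. Krt14 had 0.232 CPM in that same library and 0 in the others. Krt71 had 7.24 CPM in scramble library 2, beside a next value of 0.347 CPM. Krt80 had 27.0 CPM in scramble library 4, beside 23.8 CPM.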

How the results depend on the processing

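The 7 calls among the members were kept with DESeq2, limma-voom, RLE, upper-quartile and total-count scaling and in the fit that is not robust. Krt8 was lost with no filter and without scramble replicate 3, and Cldn7 was not tested at 1 CPM in at least 4 libraries, which left 6 calls in each case. Sets that leave out 1 library gave 6 to 8 called members and 1078 to 2616 called genes in all, the lowest without scramble replicate 3. Over all genes the count was 2299, and without scramble replicates 2, 3, 4 and 5 it was 1283, 1078, 1428 and 1361. It was 1131 without scramble library 2 and PERK_KO library 4, added after seeing the data. Upper-quartile scaling made 68.7% of calls higher and total-count scaling 47.7%, against 55.5% with TMM, but the 7 members rose under each. With the replicate number as a block, 208 genes and 3 members (Krt7, Krt8 and Cldn3) passed. Only numbers 2, 3 and 4 occur in both groups, so this comparison does not rest on scramble library 5 or PERK-deficient library 1. Scramble library 5 held nearly all Krt8 and Cldn3 counts of its group, and these genes rose by 10.01 and 9.06 in this fit. The numbers do not mark pairs in the labels, and same-numbered libraries had deviations that correlated at -0.00906, 0.0982 and -0.204. For the ratio of Cldn5 to Cdh5 the replicate block gave -1.04 (exact sign-flip p = 1). With only 3 same-numbered differences, that test cannot give a p under 0.05 and decides nothing. Sets without 1 library gave -2.98 to -0.708 for this ratio. Directions turned for Cldn5 with limma-voom (-1.37) and without PERK_KO libraries 2 and 3 (-7.72), and for Krt71 with limma-voom (0.19) and without scramble replicate 2 (2.65). Sets without 1 library gave -2.81 to 2.65 for Krt71. None of the 4 turned values passed. The set without PERK_KO libraries 2 and 3 was added after seeing the data. It leaves out both PERK-deficient libraries with Cldn5 counts, which fixes that turn, and it gave 9 called members, with Cldn1 and Cldn12 added. The set without scramble replicate 2 leaves out 400 of the 416 Krt71 counts of the scramble group, which fixes the turn of Krt71 there. For the turned values with limma-voom the cause was not tested. Levels under the floor of 3 counts, 0.0515 to 0.1005 CPM per library, cannot be told from counting error. The floor is no limit of detection, since Krt87 had 1 count, 0.0244 CPM, in PERK-deficient library 2. In that library 185 genes had 1 to 10 counts and 367 had 31 to 40, so levels above the floor may be missed as well.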

Other observations

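Gm35853, an antisense gene that overlaps exons of Krt80 on the other strand (chromosome 15, 101322888 to 101405834), is named after its values were seen. It had 0, 0, 0 and 0.155 CPM in scramble libraries 2 to 5 and 0.670, 0.707, 0.836 and 2.65 CPM in PERK-deficient libraries 1 to 4. The groups did not overlap, while those of Krt80 did. The log2 difference of 4.89 did not pass (SE 1.58, n = 4 and 4, edgeR adjusted p = 0.0617). Since the strand setting of the counting is not given in the sources used here, reads of the 2 genes may not be told apart.

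Of the members with a count in 1 group alone, 11 were seen in PERK-deficient and 9 in scramble libraries, and apart from Cldn7 these were not tested. Of the 9 scramble ones, 5 were hair or root sheath keratins. The processed pseudogene Krt8-ps had 1 count in each of 2 PERK-deficient libraries and none in the others, against 528 to 1227 counts of Krt8 in that group.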
